A study of Mus musculus with 9 samples.

Results

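The vessels of brown fat were followed here through 10 endothelial genes, *Pecam1*, *Cdh5*, *Kdr*, *Flt1*, *Tek*, *Tie1*, *Emcn*, *Eng*, *Esam* and *Cldn5*. They were chosen by name, as defining genes of blood vessel endothelium, with no measured value in the rule. The choice was made with earlier results of these data known. All 10 are among the 24356 gene symbols of the tables, and all 10 had a value above 0 in each of 9 libraries, as had 14675 genes in all, which were the genes tested. Poly A+ RNA of whole brown adipose tissue was sequenced from mice with growth hormone releasing hormone knocked out (GHRH-KO, here KO) and from littermate controls (WT), on a mixed C57BL6 and 129SV background. The groups were 2 KO females, 2 KO males, 3 WT females and 2 WT males, all on the same chow and with no other treatment named. The age of the animals is not given in the sources used here. Values are FPKM, fragments scaled to transcript length and to library size, so levels of different genes can be compared.

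Endothelial cells line every blood vessel. They are held together by VE-cadherin (*Cdh5*), claudin-5 (*Cldn5*), PECAM-1 (*Pecam1*) and ESAM (*Esam*), and they read vascular endothelial growth factors through the receptors VEGFR2 (*Kdr*) and VEGFR1 (*Flt1*), angiopoietins through the receptor TIE2 (*Tek*) and its partner TIE1 (*Tie1*), and the bone morphogenetic proteins BMP9 and BMP10 through the co-receptor endoglin (*Eng*). Endomucin (*Emcn*) is a sialoprotein of capillary and venous endothelium. Brown adipose tissue is among the most densely vascularised tissues, its capillaries carrying oxygen and lipid fuel in and heat out.

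The labels need a caution before any direction is drawn. *Ghrh*, the gene that was knocked out, had 0.846, 0.233, 0.799 and 0.470 FPKM in KO female 1, KO female 2, KO male 1 and KO male 2 as labelled, whereas every one of the 5 libraries with a WT label listed it at 0. This runs against the labels, and whether these fragments come from sequence that the deletion leaves in place was not tested. KO and WT below mean the libraries labelled so. The growth hormone receptor gene *Ghr* had 42.2 to 51.6 FPKM in the KO libraries and 62.8 to 155 in the WT libraries (log2 difference -0.98, SE 0.24, limma adjusted p = 0.0660), and *Igf1*, a target of growth hormone, 0.713 to 2.46 against 2.13 to 8.80 FPKM (-1.84, SE 0.45, adjusted p = 0.0661). Summed FPKM ran from 380558 to 443569 per library, and depth, estimated from the lowest values, from 0.916 to 1.14 times that of WT female 1. KO male 1 stood apart, with Spearman correlations of 0.924 to 0.934 with the other libraries, which reached 0.958 to 0.991 among themselves. Its B cell genes were far up, *Cd79a* at 36.8 FPKM against 0.0618 to 0.728 in the other 8, so results are also given without it.

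All 10 genes are protein coding and have positions in GENCODE M21 (GRCm38). *Tek* spans chr4:94739289-94874976 on the plus strand, *Tie1* chr4:118471191-118490061 on the minus strand, *Kdr* chr5:75932827-75978458 and *Flt1* chr5:147561604-147726011, both on the minus strand. *Eng* spans chr2:32646595-32682669, plus strand, *Cdh5* chr8:104101625-104144511, plus, *Pecam1* chr11:106654217-106750628, minus, *Esam* chr9:37528078-37538319, plus, *Emcn* chr3:137341067-137432185, plus, and *Cldn5* chr16:18776847-18778262, plus. The counting is not stated to use strand. Where they overlap, fragments of *Fpgs*, whose span on the other strand meets exons of *Eng*, cannot be told apart from those of *Eng*. Whether exons of *Fpgs* themselves overlap them was not examined. The same holds for the antisense gene *Gm29682*, whose span meets exons of *Cdh5*. Of the 50-base words of each gene's transcripts, at most 1.54% (*Pecam1*) occur in transcripts of another gene, and none of those of *Cdh5*, *Kdr*, *Tek*, *Emcn*, *Esam* or *Cldn5* do.

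The promoters of *Tek*, *Eng* and *Flt1* are shown because the comparisons below turn on these genes. *Tek* was the only gene of the 10 whose KO libraries all lay below the WT libraries, *Eng* differed in direction between the sexes, and *Flt1* had the lowest p in males. Each line gives the 250 bases before the start site (RefSeq, GRCm38.p6), 5′ to 3′ on the gene's strand, for *Tek* chr4:94739039-94739288 (plus), for *Eng* chr2:32646345-32646594 (plus) and for *Flt1* chr5:147726012-147726261 (minus). Capitals mark GGAAG, the core read by many ETS family factors, or its reverse complement.
*Tek*: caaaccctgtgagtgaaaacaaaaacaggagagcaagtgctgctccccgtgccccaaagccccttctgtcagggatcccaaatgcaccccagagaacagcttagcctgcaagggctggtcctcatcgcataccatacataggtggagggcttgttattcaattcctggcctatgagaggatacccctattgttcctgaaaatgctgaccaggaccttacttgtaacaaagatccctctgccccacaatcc
*Eng*: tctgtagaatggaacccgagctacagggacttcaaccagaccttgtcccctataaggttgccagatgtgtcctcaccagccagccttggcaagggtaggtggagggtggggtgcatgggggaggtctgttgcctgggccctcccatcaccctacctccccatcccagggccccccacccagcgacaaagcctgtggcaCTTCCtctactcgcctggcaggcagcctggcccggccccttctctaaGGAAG
*Flt1*: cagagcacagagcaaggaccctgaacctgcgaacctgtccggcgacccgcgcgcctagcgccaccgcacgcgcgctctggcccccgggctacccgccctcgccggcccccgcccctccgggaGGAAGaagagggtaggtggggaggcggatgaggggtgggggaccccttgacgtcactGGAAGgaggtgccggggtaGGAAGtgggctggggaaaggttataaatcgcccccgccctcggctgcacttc

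The *Flt1* window holds 3 copies of the core, at -128, -71 and -52 from the start site, the *Eng* window 2, at -52 and -5, and the *Tek* window none. Promoters of 7 of the 10 genes were matched, and 5 of these 7 hold the core (*Tie1* 6 copies, *Flt1* 3, *Eng* and *Emcn* 2 each, *Kdr* 1), as do 64.1% of 32851 promoters of the same length. Of the other cores searched on both strands, AACAAT (SOX factors) is in the *Tek* and *Emcn* windows and in 9.42% of all promoters. None of the 7 windows holds AGATAA, a core read by zinc finger factors of the blood and vessel lineages, which 9.99% of all promoters hold. TAAACA, read by forkhead factors, is likewise in none of them and in 12.0% of all. These matches describe letters, not binding.

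All 10 genes were clearly expressed. By mean over the 9 libraries, *Pecam1* (38.0 ± 5.94 FPKM, SD) and *Cdh5* (37.7 ± 6.98) led, followed by *Eng* (28.5 ± 6.29), *Cldn5* (25.2 ± 8.32), *Kdr* (21.9 ± 5.86), *Esam* (20.1 ± 4.03), *Emcn* (14.3 ± 3.58), *Tie1* (13.96 ± 2.59), *Flt1* (8.73 ± 2.49) and *Tek* (7.97 ± 1.52). Neighbours in this order did not always differ: *Pecam1* was above *Cdh5* in 4 of 9 libraries and *Emcn* above *Tie1* in 4, whereas *Cdh5* was above *Eng*, *Esam* above *Emcn* and *Tie1* above *Flt1* in all 9. The most abundant of the 10 lay at the 90.5th percentile of the genes tested and the least abundant at the 67.4th. Between libraries of one group the SD of log2 FPKM was smallest for *Tek* (0.16) and largest for *Cldn5* (0.53), with a median of 0.22 over the 10 against 0.24 over all genes.

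Averaged over the sexes, 9 of the 10 endothelial genes had lower estimates in KO, yet none of them passed the test (limma, Benjamini-Hochberg adjusted p under 0.05 over all genes), which called 3.6% of all genes. Genes called lower were 2.17% of all genes tested. The median log2 difference of the 10 was -0.33, against -0.07 over all genes, of which 62.5% were negative. At an unadjusted p under 0.05 there were 5 of the 10 (*Cdh5*, *Flt1*, *Tek*, *Tie1* and *Esam*), against a background of 20.2%. This count was 3 without WT female 3 (17.5% of all genes). It was near or below the background without KO female 2, WT male 2 or KO male 1, fits that leave 1 library in a group. There the medians of the 10 were -0.22, -0.23 and -0.28. Without WT male 1 the count stayed above the background, with a median of -0.43. In RNA of whole tissue, fewer endothelial cells and less RNA per endothelial cell cannot be told apart.

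**Figure D1:**
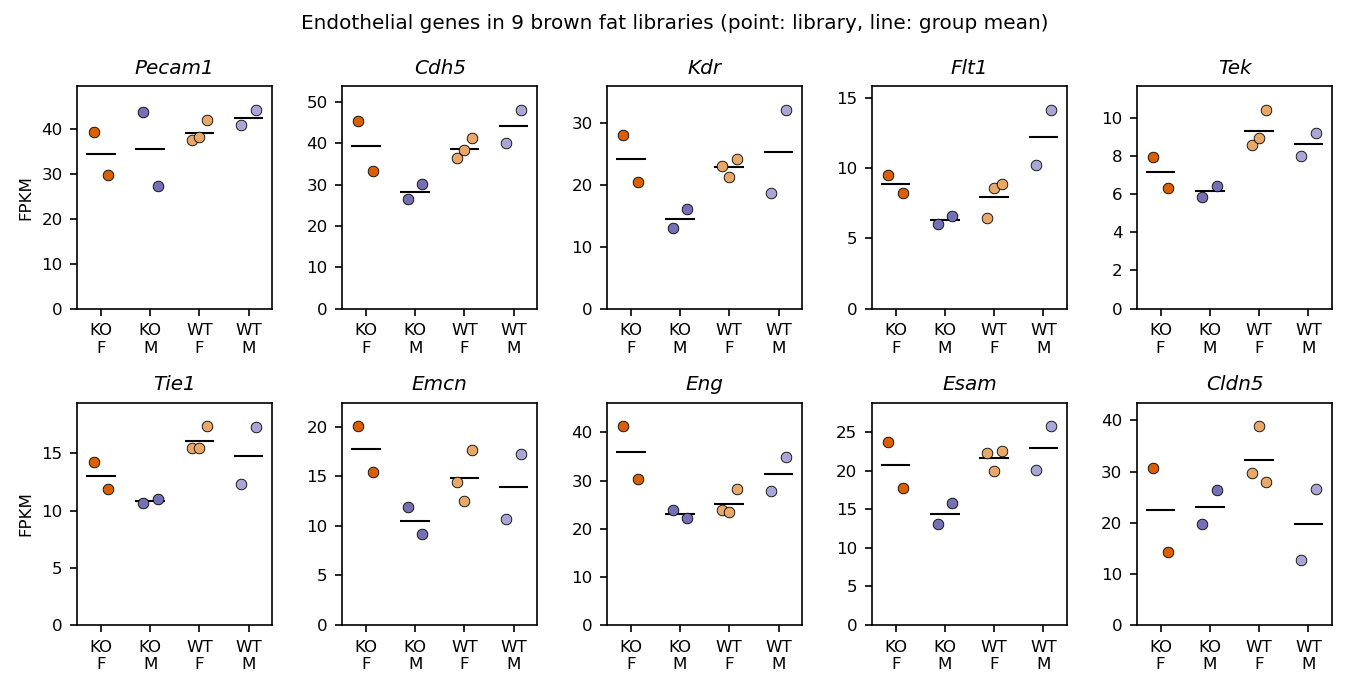
FPKM (linear axis from 0) of the 10 endothelial genes, 1 panel a gene, in KO female (2 libraries), KO male (2), WT female (3) and WT male (2) brown fat. Points are libraries and lines group means. *Tek* is the only gene whose KO points, 5.83 to 7.94 FPKM, all lie below its WT points, 7.999 to 10.4 FPKM.

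The angiopoietin receptors stood lowest relative to their spread. *Tek*, the receptor TIE2 that keeps resting vessels sealed, had 7.94, 6.34, 5.83 and 6.45 FPKM in KO female 1, KO female 2, KO male 1 and KO male 2, and 8.57, 8.93, 10.4, 7.999 and 9.21 FPKM in WT females 1 to 3 and WT males 1 and 2. All KO libraries lay below all WT libraries, but the gap between KO female 1 and WT male 1 was narrow. The log2 difference was -0.44 (SE 0.11, 95% confidence interval -0.69 to -0.18, limma adjusted p = 0.0700), a level 1.35 times higher in WT. The exact permutation test over libraries gave p = 0.00794, the smallest the design can give, and p = 0.0167 with splits within each sex, also the smallest, both two-sided and not adjusted over genes. Every KO library lay below every WT library for 6.04% of all genes tested, so 1 of 10 is close to the background. The adjusted p of *Tek* ran from 0.0567 to 0.240 over the alternatives, the highest under median centring.

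*Tie1*, the orphan receptor that pairs with TIE2, had 14.2, 11.9, 10.6 and 11.02 FPKM in the 4 KO libraries, in the same order, and 15.5, 15.4, 17.4, 12.3 and 17.3 FPKM in the 5 WT libraries. Only WT male 1, at 12.3, lay within the KO range. The log2 difference was -0.37 (SE 0.12, limma adjusted p = 0.130; exact permutation p = 0.0397 over all splits and 0.0167 within sex, two-sided). Without WT male 1 it was -0.49 with an adjusted p of 0.0401, the only call of any of the 10 under any alternative in this comparison, where its adjusted p otherwise ran up to 0.359. Leaving out KO female 1 instead put 4 genes, *Cdh5*, *Tek*, *Tie1* and *Esam*, wholly below the WT libraries, with 8.65% of all genes doing so.

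For both VEGF receptors the KO males lay below the WT males, and the females overlapped. *Kdr*, the main signalling receptor for VEGF-A, had 28.1, 20.4, 13.0 and 16.1 FPKM in the KO libraries and 23.0, 21.3, 24.2, 18.6 and 32.1 FPKM in the WT libraries. Both KO males lay below every other library, while the KO females straddled the WT females (log2 difference averaged over the sexes -0.35, SE 0.18, limma adjusted p = 0.334). *Flt1*, which binds VEGF-A tightly and signals weakly, had 9.49, 8.21, 6.00 and 6.62 FPKM in KO and 6.42, 8.55, 8.89, 10.2 and 14.1 FPKM in WT. Its KO males were at most 6.62 FPKM and its WT males at least 10.2 FPKM, with the females at 6.42 to 9.49 FPKM (log2 difference averaged over the sexes -0.38, SE 0.14, limma adjusted p = 0.183).

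Of the junction genes, *Cdh5* and *Esam* had a like layout. *Cdh5*, the cadherin of endothelial adherens junctions, had 45.3, 33.2, 26.4 and 30.2 FPKM in KO and 36.4, 38.4, 41.2, 40.1 and 48.1 FPKM in WT. KO female 1 was the second highest of the 9, and the other 3 KO libraries were below all WT libraries (log2 difference -0.31, SE 0.11, limma adjusted p = 0.169). *Esam*, an adhesion molecule of tight junctions, gave the same layout with 23.8, 17.8, 13.1 and 15.8 FPKM against 22.2, 20.0, 22.6, 20.1 and 25.8 FPKM (log2 difference -0.37, SE 0.12, limma adjusted p = 0.153).

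*Pecam1*, which leukocytes and platelets also carry, had 39.2, 29.6, 43.7 and 27.2 FPKM in KO and 37.4, 38.0, 41.8, 40.7 and 44.2 FPKM in WT (log2 difference -0.25, SE 0.15, limma adjusted p = 0.423). KO male 1, the library with the high B cell genes, was the second highest of all for *Pecam1* and the lowest of all for 6 of the 10 genes. Without it the log2 difference of *Pecam1* was -0.42 with an adjusted p of 0.0753, the lowest over its alternatives, which ran to 0.778. *Cldn5*, the tight junction claudin of capillaries, was the least reproducible, at 30.7, 14.3, 19.7 and 26.4 FPKM in KO and 29.8, 38.8, 28.0, 12.7 and 26.6 FPKM in WT, and the log2 difference, -0.15 (SE 0.29, limma adjusted p = 0.856), turned to 0.13 without KO female 2 and to 0.12 without WT male 2.

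*Eng* and *Emcn* did not follow the others. *Eng* had 41.3, 30.4, 23.9 and 22.3 FPKM in KO and 23.9, 23.4, 28.3, 27.8 and 34.9 FPKM in WT, a log2 difference of 0.03 (SE 0.12, 95% confidence interval -0.25 to 0.31, limma adjusted p = 0.937). Both KO females stood above all 3 WT females, and both KO males below both WT males. *Emcn* had 20.0, 15.4, 11.9 and 9.16 FPKM in KO and 14.5, 12.5, 17.6, 10.7 and 17.2 FPKM in WT, a log2 difference of -0.06 (SE 0.18, 95% confidence interval -0.49 to 0.37, limma adjusted p = 0.911). Both signs turned under some alternatives, to -0.080 for *Eng* without KO female 1 and to 0.11 for *Emcn* without WT male 2.

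**Figure D2:**
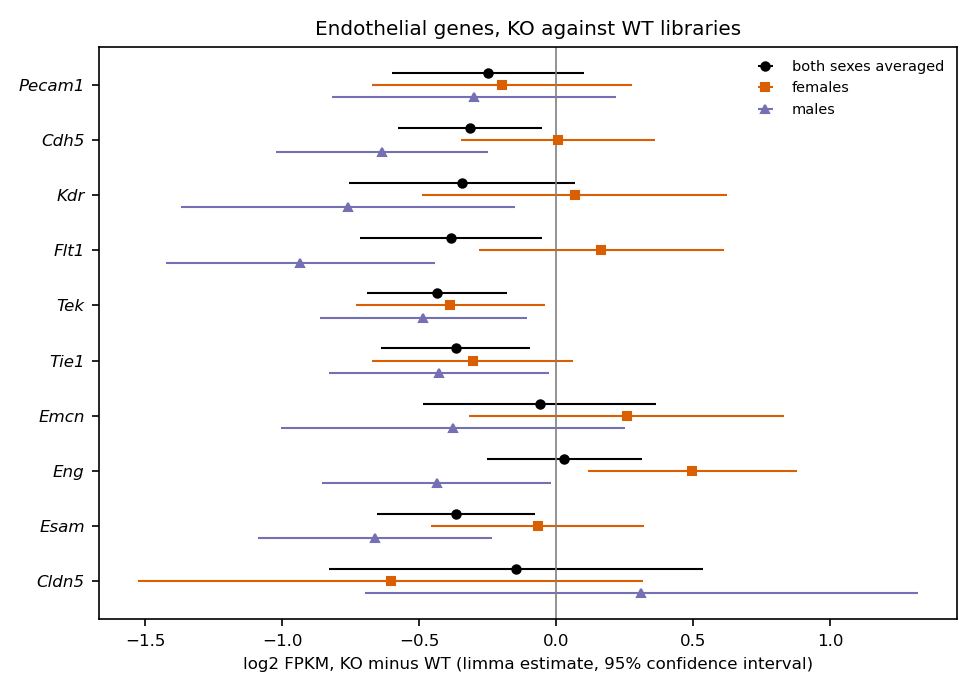
Log2 FPKM difference, KO minus WT, for each of the 10 endothelial genes, as the limma estimate with its unadjusted 95% confidence interval, averaged over the sexes (circles), in females (squares) and in males (triangles). In males 9 of 10 estimates are below 0, in females 5 of 10, and *Eng* is the gene with intervals on opposite sides of 0, at 0.50 in females and -0.44 in males.

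Split by sex, the lower estimates lay mostly in males. In males 9 of the 10 were negative, with a median of -0.46 (all genes -0.08), and 7 had an unadjusted p under 0.05 against a background of 16.6%. None passed the adjusted threshold, which only 0.0136% of all genes did. The lowest was *Flt1* (log2 difference -0.93, SE 0.21, limma adjusted p = 0.0975), 1.91 times higher in WT, followed by *Cdh5* (-0.64, SE 0.17, adjusted p = 0.117) and *Esam* (-0.66, SE 0.18, adjusted p = 0.131). *Kdr* was at -0.76 (SE 0.26) and *Cldn5* at 0.31 (SE 0.43), the single positive estimate. With 1 library left out in turn, KO male 1 included, the median of the 10 in males ran from -0.70 to -0.32.

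In females 5 of the 10 were negative, with a median of -0.03 (all genes -0.07), and 2 had an unadjusted p under 0.05, *Eng* (log2 difference 0.50, SE 0.16, limma adjusted p = 0.285) and *Tek* (-0.39, SE 0.15, adjusted p = 0.344), against a background of 12.7%. None passed the adjusted threshold, as 0.0204% of all genes did. Centring each library on its median moved the median of all genes in females by 0.11 and turned the females' median over the 10 to 0.08. *Tek* (-0.39 in females, -0.49 in males) and *Tie1* (-0.30 and -0.43) were the genes with the most similar estimates in both sexes, besides *Pecam1* (-0.20 and -0.30).

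The difference between the sexes was tested by the interaction, KO minus WT in males less that in females. It was negative for 9 of the 10, with a median of -0.61 (all genes -0.01), and 5 had an unadjusted p under 0.05 (*Flt1* -1.10, *Eng* -0.93, *Kdr* -0.83, *Cdh5* -0.64, *Esam* -0.59) against a background of 7.01%. None passed the adjusted threshold, nor did any gene (0%). The lowest adjusted p, 0.624, was shared by *Flt1* (SE 0.29) and *Eng* (SE 0.24). Leaving out 1 library in turn, KO male 1 included, moved the interaction median of the 10 between -0.81 and -0.35. Between the sexes themselves, averaged over the genotypes, 8 of the 10 were lower in males, as were 48.5% of all genes. The median of the 10 was -0.18 (all genes 0.0074), and none passed the test (0.0136% of all genes did). *Emcn* was the only one of the 10 with an unadjusted p under 0.05, against a background of 10.4% (log2 difference male minus female -0.44, SE 0.18, limma adjusted p = 0.466).

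Across libraries, KO female 1 was the highest KO library for 9 of the 10, and WT male 2 the highest of all 9 libraries for 5. Of the 10 genes, 1 was below every WT library in KO female 1 (24.9% of all genes tested), 5 in KO female 2 (30.2%), 6 in KO male 1 (26%) and 8 in KO male 2 (44.4%). Each gene's correlation with the mean of the other 9 (log2 FPKM centred per gene, 9 libraries) was highest for *Kdr* (r = 0.939, rho = 0.967), *Cdh5* (r = 0.923, rho = 0.950) and *Esam* (r = 0.923, rho = 0.950). It was lowest for *Cldn5* (r = 0.317, rho = 0.583), *Pecam1* (r = 0.429, rho = 0.40) and *Eng* (r = 0.603, rho = 0.650). These describe 9 libraries of 4 groups that share each library's composition, and no p is given.

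Outside the 10, the genes most like their mean were *Tns2* (r = 0.967, rho = 0.950), *Ppp1r3g* (r = 0.966, rho = 0.950), *Evi5l* (r = 0.956, rho = 0.950), *Mical3* (r = 0.954, rho = 0.917) and *Hspg2*, which encodes the basement membrane proteoglycan perlecan (r = 0.952, rho = 0.983). None of the 5 is on a marker or pathway list used here. *Hspg2* ran from 4.64 FPKM in KO male 1 to 16.6 FPKM in WT male 2, the same lowest and highest libraries as for *Kdr*.

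Ratios within a library were compared for all 45 pairs of the 10 genes. For 2 pairs, 4.44%, they did not overlap between KO and WT, and both pairs held *Eng*. Single genes did not overlap, in either direction, for 9.07% of all genes tested, so the number of such pairs is no result about the 10. *Eng* over *Cdh5* was 0.910, 0.915, 0.903 and 0.736 in the KO libraries and 0.655, 0.609, 0.687, 0.695 and 0.726 in the WT libraries. *Eng* over *Esam* was 1.41 to 1.83 in KO and 1.07 to 1.39 in WT. *Tek* over *Cdh5* overlapped, at 0.175 to 0.221 in KO and 0.192 to 0.253 in WT. These ratios were looked at after the values were seen and were not tested.

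**Figure D3:**
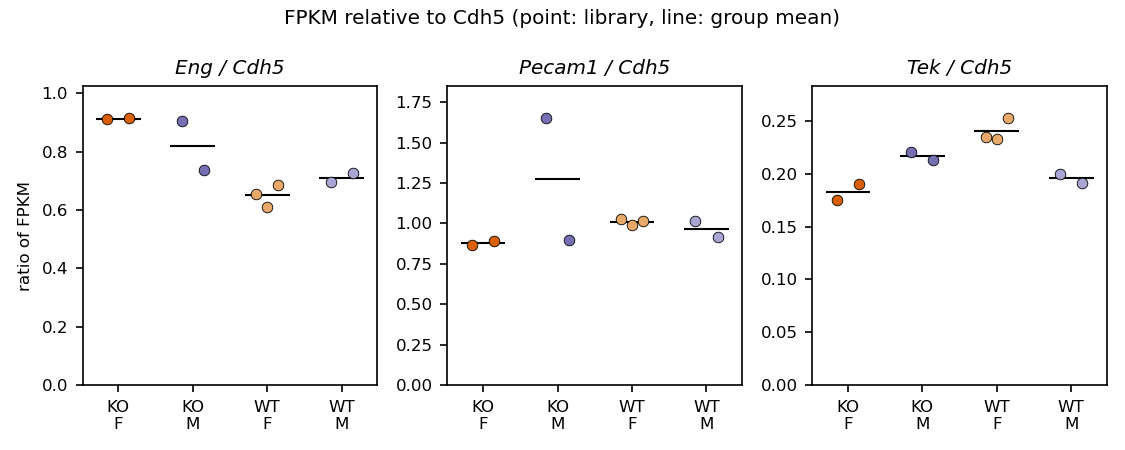
Ratio of the FPKM of *Eng*, *Pecam1* and *Tek* to that of *Cdh5* (linear axis from 0) in each library by group, with lines at group means. *Eng* over *Cdh5* lies at 0.736 to 0.915 in KO and 0.609 to 0.726 in WT, and *Pecam1* over *Cdh5* is 1.65 in KO male 1 against 0.864 to 1.03 in the other 8 libraries.

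The other pan-endothelial markers, 35 genes in all, had a median of -0.32, near that of the 10, with 31 of 35 negative. Here 5 passed the test, all lower in KO, as were 2.17% of all genes. They were *Mcam* (log2 difference -1.03, limma adjusted p = 0.0357), an adhesion molecule shared with pericytes, *Sdpr* (-0.58, adjusted p = 0.0347) and *Cav1* (-0.47, adjusted p = 0.0347), both of caveolae and both also abundant in adipocytes, *Tinagl1* (-0.53, adjusted p = 0.0352) and *Ptprb* (-0.50, adjusted p = 0.0385), the phosphatase that acts on TIE2. *Mcam* had 8.48 to 10.7 FPKM in KO and 14.1 to 24.5 FPKM in WT. The list summed to 779, 695, 637 and 594 FPKM in the KO libraries and to 825, 869, 912, 808 and 938 FPKM in the WT libraries, without overlap. *Cav1* alone gave 194 to 247 FPKM of that in KO and 280 to 340 FPKM in WT. Without it, a check added after its values were seen, the other genes overlapped (376 to 532 against 518 to 616 FPKM), KO female 1 lying above WT male 1. The sum of the 10 genes overlapped (171 to 260 against 201 to 270 FPKM). Set against the mean log2 level of these 35, all 10 genes overlapped between KO and WT. The mean differences were then 0.39 for *Eng*, 0.26 for *Emcn*, -0.12 for *Tek* and between -0.05 and 0.10 for the other 7.

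**Figure D4:**
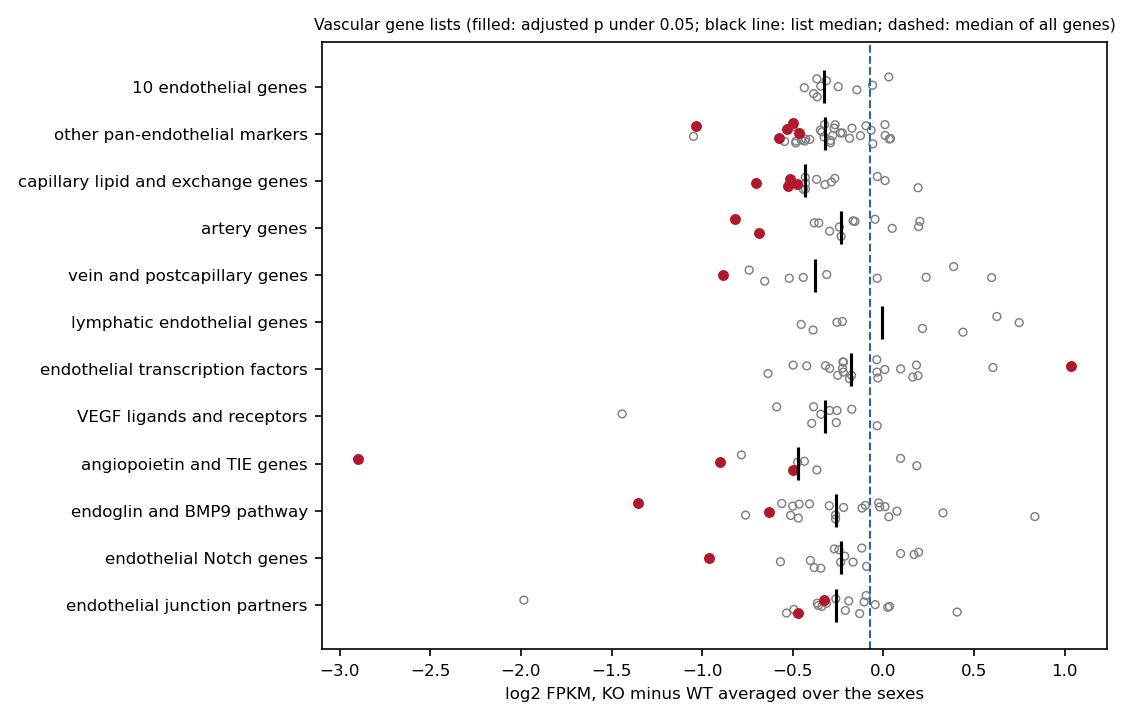
Log2 FPKM difference, KO minus WT averaged over the sexes, of each tested gene in 12 vascular lists. Filled points passed the adjusted threshold, black lines are list medians and the dashed line is the median of all genes, -0.07. The 10 endothelial genes (top) hold no filled point and have a median of -0.33.

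The angiopoietin and TIE list shares *Tek* and *Tie1* with the 10 endothelial genes. Of its 9 tested genes 3 were lower in KO (2.17% of all genes), none was higher, and the median was -0.47. *Svep1*, a large matrix protein that binds TIE1, had 0.463, 0.586, 0.364 and 0.413 FPKM in KO and 2.48, 2.99, 2.16, 3.62 and 5.51 FPKM in WT (log2 difference -2.90, SE 0.19, limma adjusted p = 0.00356). It was called under all 19 alternatives. *Angptl2*, a secreted angiopoietin-like protein, was lower as well (21.0 ± 2.99 against 38.7 ± 2.32 FPKM, SD, n = 4 and 5; log2 difference -0.90, SE 0.09, limma adjusted p = 0.0139), as was *Ptprb* above. The ligands that bind TIE2 itself, named outside the rule for named genes, did not pass: *Angpt1*, which activates it, at -0.47 (limma adjusted p = 0.203) and *Angpt2*, its context-dependent antagonist, at 0.18 (adjusted p = 0.753), turning to -0.02 without KO male 1.

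The VEGF list shares *Kdr* and *Flt1* with the 10 endothelial genes. None of its 10 genes passed the limma test, 4, *Flt1* among them, had an unadjusted p under 0.05 (20.2% of all genes), and all 10 estimates were negative (median -0.32). The ligand *Vegfa* had 35.7 to 96.9 FPKM in KO and 61.0 to 86.3 FPKM in WT (-0.26, limma adjusted p = 0.495), and placental growth factor, *Pgf*, was at -1.44 (adjusted p = 0.0673) from values of at most 0.724 FPKM, passing without KO male 1 (-1.79, adjusted p = 0.0388, the lowest of a range to 0.212). The co-receptor *Nrp1* was at -0.30 (adjusted p = 0.172).

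In the endoglin and BMP9 list, which also holds *Eng*, 2 of 22 tested genes were lower in KO (2.17% of all genes) and none was higher (median -0.26). *Tgfbr3*, betaglycan, the co-receptor related to endoglin, had 12.8, 11.7, 11.01 and 10.5 FPKM in KO and 15.3, 17.4, 15.7, 16.5 and 23.3 FPKM in WT (log2 difference -0.63, SE 0.11, limma adjusted p = 0.0363). *Bmper*, a secreted BMP modulator, was at 0.954 to 1.44 FPKM in KO and 2.09 to 5.08 FPKM in WT (-1.35, SE 0.16, limma adjusted p = 0.0212). *Tgfbr2* did not pass (-0.46, adjusted p = 0.0629, but 0.0447 without KO male 1 in a range to 0.215), nor did *Acvrl1*, the receptor ALK1 that *Eng* assists, named outside the rule (-0.12, adjusted p = 0.752). The ligand *Bmp10* was listed at 0 in every library, and *Gdf2*, which encodes BMP9, at 0 in some.

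By vessel type, 4 of 15 capillary lipid and exchange genes were lower in KO (2.17% of all genes, the share beside each list here) and none higher (median -0.43). They were *Timp4* (-0.70, limma adjusted p = 0.0343), *Lpl* (-0.48, adjusted p = 0.0347), the lipoprotein lipase that adipocytes make, *Rgcc* (-0.52, adjusted p = 0.0403) and *Gpihbp1* (-0.53, adjusted p = 0.0451), the capillary protein that carries that lipase to the lumen. Of 13 artery genes 2 were lower, *Sema3g* (-0.82, adjusted p = 0.0347) and *Fbln5* (-0.69, adjusted p = 0.0490), with a median of -0.23. Of 10 vein genes 1 was lower, *Lrg1* (-0.89, adjusted p = 0.0403), with a median of -0.38. *Lrg1* had a mean of 81.7 FPKM over the 9 libraries. The other genes of that list had means from 0.324 (*Sele*) to 25.7 FPKM (*Bgn*). Whether *Lrg1* came from veins was not tested. None of 8 tested lymphatic genes passed the limma test, and 0 had an unadjusted p under 0.05 (median -0.0049). The sum of that list was 75.1 FPKM in KO male 1 against 7.74 to 19.0 FPKM in the other libraries. With all libraries its median was -0.31 in females and 0.49 in males, and without KO male 1 the median averaged over the sexes was -0.51.

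Of 22 endothelial transcription factors 1 passed, and it was higher: *Mef2c*, which muscle also expresses (1.04, limma adjusted p = 0.0451; list median -0.18). The counts in this and the following lists stand beside 3.6% of all genes called, and 2.17% called lower. *Sox17* was at -0.64 and *Meox2* at -0.32, neither called. Of 15 Notch genes, *Hes1*, a Notch target, was lower (-0.96, adjusted p = 0.0222; list median -0.24). Of 19 junction genes *Tjp1* (-0.47, adjusted p = 0.0370) and *F11r* (-0.33, adjusted p = 0.0392) were lower (list median -0.26). Of 16 hypoxia response genes *Egln1*, an oxygen sensor, was higher (0.55, adjusted p = 0.0403; list median 0.04). Of the genes called in these 12 vascular lists and the hypoxia list, 21 in all, *Svep1* alone kept the call under all 19 alternatives, and 17 lost it under 10 or more of them. *Angptl2* lost it under 4, *Bmper* and *Hes1* under 7 each, and *Fbln5* under 17. No direction turned. A place on a vascular list does not give the cell of origin in whole tissue. Which cells made *Svep1*, *Angptl2*, *Bmper*, *Tgfbr3*, *Fbln5* and *Lrg1* was not tested. Fibroblast and white adipocyte markers also had negative medians (-0.52 and -1.04), and brown adipocyte markers a positive one (0.34). Without KO male 1 the medians were -0.28 for the 10 genes, -0.34 for the other pan-endothelial markers and -0.35 for the capillary list, with 0, 2 and 1 genes lower.

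Markers of other cells moved beside these values, and their part in the differences was not tested. Over all genes tested, 3.6% were called and 2.17% were called lower. The 14 skeletal muscle markers summed to 3009 to 13654 FPKM in KO and to 517 to 2599 FPKM in WT without overlap, with a median log2 difference of 2.28 and 3 genes higher (*Acta1*, *Myh1*, *Mylpf*). Of 12 fibroblast markers 4 were lower in KO (*Col1a1*, *Col1a2*, *Col3a1*, *Lum*; list median -0.52), the sums being 164 to 249 against 206 to 352 FPKM. Of 7 tested white adipocyte markers *Lep* was lower (list median -1.04). Sums were 35.1 to 91.9 against 82.5 to 327 FPKM, and *Hoxc10* was at 0 in all libraries.

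Among cells that touch the endothelium, 16 pericyte and smooth muscle markers had a median of -0.41, with *Pdgfrb* (-0.71) and *Myh11* (-0.65) lower and *Des*, which skeletal muscle also expresses, higher (1.59), against 3.6% of all genes called. Their sums were 205 to 304 FPKM in KO and 189 to 226 FPKM in WT, but *Des* made up 87.7 to 181 FPKM of those in KO. Without *Des*, left out after its values were seen, the sums were 146, 117, 124 and 103 FPKM in KO and 161 to 174 FPKM in WT, all KO below all WT. The 16 leukocyte markers summed to 694 FPKM in KO male 1, 31.3 to 41.3 in the other KO libraries and 51.3 to 123 in WT, with *Cd14* lower in KO. Of 9 tested platelet and erythroid markers *Hbb-bs* was lower, and their sums overlapped (445 to 958 against 664 to 1865 FPKM). *Hbb-bs* had 0.00376, 0.00366, 4.70 and 0.00356 FPKM in the KO libraries and 9.67 to 32.3 FPKM in WT. *Alas2*, on the same list, overlapped at 3.28 to 6.35 against 5.71 to 15.2 FPKM. So large a difference in *Hbb-bs* is therefore not read as one in erythroid cells, and its source was not tested. The 10 brown adipocyte markers had sums of 6519 to 8421 against 6120 to 7951 FPKM, with *Kng2* higher. Their median log2 difference was 0.34, and 3 of the 10 were negative. One of these, *Prdm16*, had 1.98 to 2.93 FPKM in KO and 2.16 to 5.10 FPKM in WT and was not called. *Ucp1*, which defines the tissue, had 2164 to 2992 FPKM in KO and 1357 to 2325 FPKM in WT (log2 difference 0.52, limma adjusted p = 0.0739). None of 9 tested Schwann and nerve markers passed the limma test, and 1 had an unadjusted p under 0.05 (median -0.29).

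**Figure D5:**
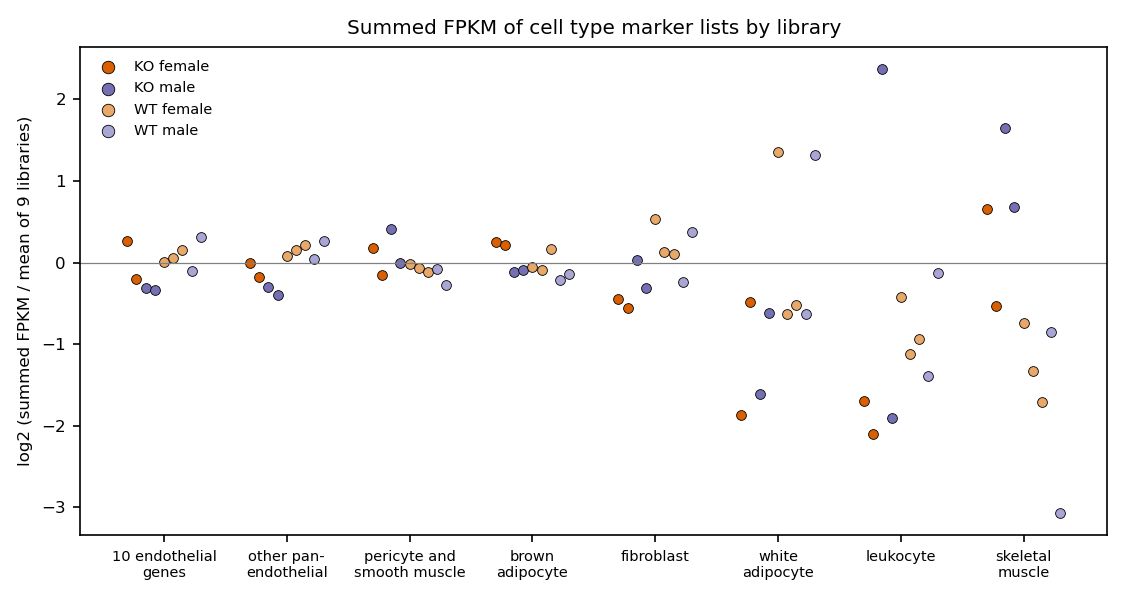
Summed FPKM of 8 marker lists in each library, as the log2 ratio to the mean of the 9 libraries (KO females, KO males, WT females and WT males from left to right in each list). The sums of the 10 endothelial genes spread little, from 171 to 270 FPKM. So do those of brown adipocytes (6120 to 8421 FPKM) and of pericytes and smooth muscle (189 to 304 FPKM). Skeletal muscle runs from 517 to 13654 FPKM and leukocytes from 31.3 to 694 FPKM.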

How the data were processed

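The authors' deposited values are FPKM, 1 table per library and 24356 gene symbols each. Per the labels and the methods, reads were handled with bcl2fastq 1.8.4, aligned to mm10 with TopHat2 2.0.11 and quantified with Bowtie. Depth in fragments is unknown, as only FPKM were used, so relative depth was estimated from ratios among values of 0.001 to 0.15 FPKM, and no counting interval is given. Libraries were numbered within their group in accession order.

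Log2 FPKM of genes above 0 in all 9 libraries, with no pseudocount and no further scaling, were fitted in limma 3.58.1 (R 4.3.3) with 1 mean per genotype and sex and a mean-variance trend, with Benjamini-Hochberg adjustment over 14675 genes. Groups of 2 and 3 libraries limit the precision. Single genes were also tested by exact permutation of libraries (126 splits, 60 within sex). The fitting was tested on simulated data with independent noise in each gene and no library standing apart as KO male 1 does. That test therefore does not bear on how stable the calls are. The 19 alternatives are given in the closing section.

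The 10 genes and the 20 other lists were chosen with earlier results of these data known. The rule for named genes took the 10, the 3 genes with the lowest p in each list, all called genes of the VEGF, angiopoietin and endoglin lists, *Ghrh*, *Ghr*, *Igf1*, *Ucp1* and the 5 genes most like the 10. *Mcam*, *Gpihbp1* and *Lum* were added after their values were seen, and *Angpt1*, *Angpt2*, *Vegfa* and *Acvrl1* as partners of the 10. Positions are from GENCODE M21 and promoters from RefSeq (GRCm38.p6).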

Additional observations from a re-analysis of the deposited data

Results flagged for a closer look

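*Eng* was singled out because its KO minus WT difference pointed in opposite directions in the sexes. Both KO females (41.3 and 30.4 FPKM) were above the 3 WT females (23.4 to 28.3 FPKM), and both KO males (23.9 and 22.3 FPKM) were below the 2 WT males (27.8 and 34.9 FPKM). The interaction was -0.93 on the log2 scale (SE 0.24, limma adjusted p = 0.624, unadjusted p = 0.00539), so it did not pass the adjusted threshold. Over the alternatives the estimate lay between -1.15 and -0.71, with adjusted p of 0.130 to 0.976. No library of any of the 10 genes stood out within its genotype by Dixon's criterion.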

How the results depend on the processing

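None of the 10 endothelial genes was called in any comparison under any alternative, except *Tie1* averaged over the sexes without WT male 1. The number of genes called is less stable. Averaged over the sexes it was 170 with no filter and a pseudocount of 0.1, 222 with median centring, 34 with no mean-variance trend, 55 with library weights and 19 in an ordinary linear model, against 529. In females it was 11 at a mean FPKM of at least 1, 0 with no trend, 372 with weights and 1 in the ordinary model, against 3. In males it was 0 with a pseudocount of 1, with no trend, with weights and in the ordinary model, 1 with no filter or quantile normalization, and 19 at a mean of at least 1, against 2. Between the sexes it was 10 with no filter, 1 with median centring and 8 in the ordinary model, against 2. The causes were not tested. Of the 529 called genes 60.3% were lower in KO, against 41.4% with median centring and 48.6% with quantile normalization. Centring moved the median of all genes by 0.11 in females and by -0.10 in the interaction. In females *Esam* turned to 0.041 with median centring and *Cdh5* to -0.010 with weights.

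Leaving out 1 library in turn moved the called genes from 8 (without KO female 1) to 1105 (without KO male 2) averaged over the sexes, 0 to 19 in females, 0 to 1293 (without KO male 2) in males, 1 to 803 between the sexes and 0 to 721 in the interaction. Of the 10 genes, 1 to 4 lay wholly below WT, against 7.06% to 13.5% of all genes, a check added after the values were seen. The medians of the 10 ran from -0.43 to -0.22 averaged over the sexes, -0.25 to 0.19 in females, -0.70 to -0.32 in males, -0.27 to -0.07 between the sexes and -0.81 to -0.35 in the interaction. Single genes whose sign turned ranged, averaged over the sexes, from -0.080 to 0.14 (*Eng*), -0.23 to 0.11 (*Emcn*), -0.42 to 0.13 (*Cldn5*), -0.021 to 0.39 (*Angpt2*) and -0.24 to 0.0048 (*Acvrl1*). In females they ranged from -0.22 to 0.23 (*Cdh5*), -0.16 to 0.30 (*Kdr*), -0.40 to 0.0053 (*Pecam1*) and -0.28 to 0.14 (*Esam*), and in males from -0.64 to 0.042 (*Pecam1*) and -0.23 to 0.85 (*Cldn5*). Between the sexes they ranged from -0.10 to 0.24 (*Pecam1*) and -0.053 to 0.18 (*Flt1*), and in the interaction from -0.45 to 0.24 (*Pecam1*), -0.26 to 0.064 (*Tek*) and -0.37 to 0.12 (*Tie1*). No paired analysis was possible because the labels number animals, not pairs.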
